A study of Mus musculus with 21 samples.

Results

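Spiral ganglion neurons of the cochlear base were compared between mice given a truncated SK3 channel by adeno-associated virus (truncated SK3 base, 3 libraries) and mice given EGFP by the same kind of virus (control base, 4 libraries). These 7 libraries, of 21 in all, were taken by their titles, and every gene that passed a filter on low counts was compared, which left 14968 genes. All animals were at postnatal day 7, and about 50 neurons drawn up with a micropipette made 1 library, which was prepared from polyadenylated RNA by Smart-seq2. The labels give the genotype of the control libraries as WT and describe the truncated SK3 as acting in a dominant-negative way on mouse SK3. The promoter of the virus, the age at injection and the number of animals are not given in the sources used here. The labels call the libraries biological replicates without saying whether they came from separate animals, so p-values measure the spread between libraries. Other groups served for comparison. These were the same construct in the apex (3 libraries, truncated SK3 apex) with its own EGFP controls (4 libraries, control apex) and a site-mutated, dominant-negative HCN2 channel in the base (3 libraries, DN-HCN2 base).

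SK3, the product of Kcnn3, belongs to the small-conductance potassium channels that open when calcium rises inside a cell and that then hold the membrane below its firing threshold. Before hearing begins, spiral ganglion neurons fire in bursts that start in the cochlea itself, and activity of this kind drives genes such as the neuronal pentraxins and the immediate early genes. Neurons of the base will encode high sound frequencies and those of the apex low ones. The question addressed was which transcripts differ in basal neurons that carry the truncated channel.

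Total counts ranged from 10411634 to 12521752 in truncated SK3 base and from 11744430 to 14557161 in control base. Levels below are CPM, counts scaled to a common library total after TMM normalisation, and differences are log2 fold changes of truncated SK3 over control with their standard error (SE). Spearman correlations across genes between libraries of a group ran from 0.932 to 0.948 in truncated SK3 base and from 0.947 to 0.967 in control base. Tubb3, Nefl, Snap25 and Slc17a7, neuronal genes taken from the marker list of spiral ganglion neurons, were detected in all 7 libraries. Glial and blood transcripts were present too and are described with the marker lists.

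The targeted gene was barely detected. Kcnn3 (chromosome 3, 89520164 to 89675132, GRCm38) had 2, 6 and 1 counts in truncated SK3 base, against 14, 0, 22 and 9 counts in control base. The groups overlapped, and the log2 fold change of -1.63 (SE 1.75) was not called (edgeR adjusted p = 1). The sequence of the insert is not given, and expression of the construct was not tested by these counts. Of the other SK genes none was called. Kcnn1 (SK1) lay at 18.4, 14.6 and 15.8 CPM in truncated SK3 base, against 23.7, 24.0, 25.9 and 20.4 CPM in control base. All 3 truncated SK3 libraries were below all 4 controls, but the log2 fold change of -0.53 (SE 0.37) was not called (edgeR adjusted p = 1). Kcnn2 (SK2) averaged 25.6 ± 1.79 CPM (SD, n = 3) in truncated SK3 base and 25.5 ± 0.45 CPM (SD, n = 4) in control base. Kcnn4 (SK4) stayed under 4 CPM in every basal library. Hcn2, the target of the other construct, ranged from 10.6 to 81.9 CPM in truncated SK3 base and from 9.84 to 89.8 CPM in control base, so its groups overlapped over nearly their whole range.

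Few transcripts differed. At a false discovery rate of 0.05, edgeR called 22 of the 14968 genes, which is 0.147% of those tested. Of these, 11 were higher with truncated SK3 (0.0735%) and 11 were lower (0.0735%). At an unadjusted p under 0.05 there were 386 higher genes (2.58%) and 439 lower ones (2.93%), together 5.51% of those tested. The median log2 fold change of all genes was 0.01. In each of the 22 called genes the 3 truncated SK3 libraries lay wholly on one side of the 4 controls, as they did in 8.46% of all genes tested (3.91% above and 4.55% below the controls). DESeq2 called 81 genes and limma-voom 45, and each of these sets held all 22. With truncated SK3 base replicate 1 left out 11 genes were called, and without replicate 3 of that group 12 were called.

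The called genes divide by how much of their sequence they share with other genes. Reads from near-identical genes can be counted for the wrong one, and how the counting treated such reads is not given in the sources used here. A gene was taken to share sequence when 20% or more of the stretches of 50 bases in its longest transcript were also found in the longest transcript of some other gene. This held for 11 of the 22 called genes (50%), against 5.71% of tested genes. The other 11 genes comprise 5 that rose and 6 that fell, and these are described first.

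Among the genes that rose, Csrp1 had the largest change. Csrp1 (chromosome 1, 135720061 to 135752232), which encodes a LIM-domain protein of actin bundles, stood at 300.2, 80.9 and 139 CPM in truncated SK3 base, against 11.4, 4.03, 19.4 and 12.2 CPM in control base. The lowest truncated SK3 library was several times the highest control, and replicate 1 was the highest of all. On the log2 scale the change was 3.88, with an SE of 0.52 (edgeR adjusted p = 0.000651). The call stood in each of the 7 fits that left out 1 library, and was lost when only the 7 basal libraries were fitted (edgeR adjusted p = 0.13).

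Psmc3ip (chromosome 11, 101091823 to 101095436) encodes HOP2, known for its part in DNA strand exchange during meiosis. It was at 13.1, 13.8 and 24.0 CPM in truncated SK3 base, against 0.872, 1.41, 2.37 and 1.83 CPM in control base. A transcript near the limit of detection in every control was thus clearly present in every truncated SK3 library. The change was 3.37 on the log2 scale with an SE of 0.55 (edgeR adjusted p = 0.00664), with a call that was lost without truncated SK3 base replicate 3 (edgeR adjusted p = 0.0587).

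Gprc5b (chromosome 7, 118972047 to 118995211), a receptor without a known ligand and a member of the retinoic acid-inducible group, rose in a narrow band. Its levels were 106, 117 and 83.1 CPM in truncated SK3 base, against 26.8, 34.5, 38.2 and 35.6 CPM in control base. No library of either group came near the other group. The change was 1.59 on the log2 scale with an SE of 0.20 (edgeR adjusted p = 0.000243), and the gene was called in every fit that was tried.

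The last 2 genes of this kind that rose had smaller changes. Hddc3 (chromosome 7, 80343104 to 80350547) encodes MESH1, a phosphohydrolase. It was at 72.2, 65.0 and 65.1 CPM in truncated SK3 base, against 40.5, 15.8, 17.2 and 26.0 CPM in control base, a log2 fold change of 1.44 (SE 0.25, edgeR adjusted p = 0.0115). Control base replicate 1 lay above the other controls and still below all truncated SK3 libraries. Nrsn2 (chromosome 2, 152368755 to 152376638), which encodes the vesicle membrane protein neurensin-2, was at 149, 135 and 113 CPM in truncated SK3 base, against 73.8, 50.2, 50.6 and 60.1 CPM in control base, a log2 fold change of 1.17 (SE 0.19, edgeR adjusted p = 0.00699). Hddc3 was not called without control base replicates 2 or 3 or truncated SK3 base replicates 1 or 3 (edgeR adjusted p up to 0.0932), and Nrsn2 was not called without truncated SK3 base replicate 1 (edgeR adjusted p = 0.0836).

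**Figure D1:**
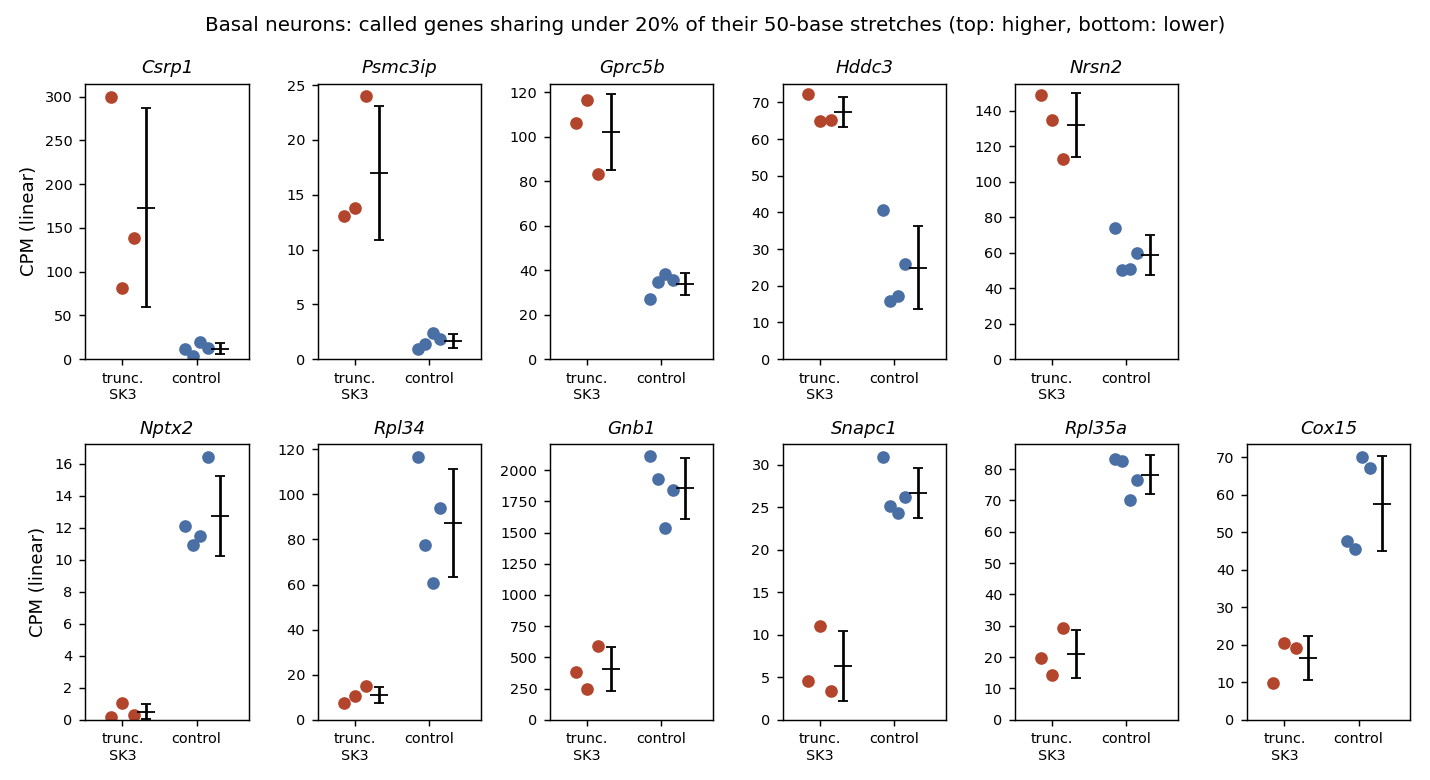
Levels (CPM, linear axes) of the 11 called genes under the 20% limit of shared sequence, of which Rpl34 and Rpl35a still share stretches with pseudogenes, with truncated SK3 base (red, n = 3) left of control base (blue, n = 4); each point is a library and the black bars are the mean and SD. In every panel the points of one group lie wholly above those of the other, with Csrp1 the most spread among the genes that rose.

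Among the genes that fell, Nptx2 had the largest change. Nptx2 (chromosome 5, 144545902 to 144557478) encodes neuronal pentraxin 2, a secreted protein that neurons make after activity and that gathers AMPA-type glutamate receptors at synapses. Its counts were 2, 13 and 3 in truncated SK3 base, against 139, 155, 169 and 233 in control base. In levels these were 0.204, 1.05 and 0.29 CPM in truncated SK3 base, against 12.1, 11, 11.5 and 16.4 CPM in control base. The transcript was nearly absent from all 3 truncated SK3 libraries and steady among the controls. edgeR put the log2 fold change at -4.58 with an SE of 0.82 (adjusted p = 0.0126). Without truncated SK3 base replicate 1 or replicate 3 the gene was not called (edgeR adjusted p up to 0.159), with log2 fold changes between -5.64 and -4.22 over the 7 fits.

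Gnb1 (chromosome 4, 155491361 to 155559269), the beta 1 subunit of heterotrimeric G proteins, was the most abundant of the genes that fell. It lay at 383, 246 and 595 CPM in truncated SK3 base, against 2113, 1932, 1533 and 1839 CPM in control base. The highest truncated SK3 library was at less than the lowest control by a wide margin. This was a change of -2.18 on the log2 scale with an SE of 0.43 (edgeR adjusted p = 0.043). The call was the weakest of the 22, and no fit that left out 1 library kept it (edgeR adjusted p up to 0.283).

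Snapc1 (chromosome 12, 73964481 to 73988966) encodes a subunit of the complex that starts transcription of small nuclear RNA genes. It was at 4.59, 11.1 and 3.39 CPM in truncated SK3 base, against 30.9, 25.2, 24.3 and 26.2 CPM in control base, a log2 fold change of -2.07 (SE 0.35, edgeR adjusted p = 0.00935). Cox15 (chromosome 19, 43733254 to 43753000), an enzyme of heme A synthesis that cytochrome c oxidase needs, was at 9.69, 20.6 and 19.1 CPM in truncated SK3 base, against 47.8, 45.6, 70.2 and 67.0 CPM in control base, a log2 fold change of -1.81 (SE 0.32, edgeR adjusted p = 0.0126). In both genes the groups were far apart, with replicate 2 the highest of the truncated SK3 libraries. Snapc1 was not called without truncated SK3 base replicates 1 or 3 (edgeR adjusted p up to 0.121), nor Cox15 without either of these or control base replicates 3 or 4 (edgeR adjusted p up to 0.151).

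The last pair under the 20% limit, Rpl34 and Rpl35a, belongs to the cytosolic ribosomal protein genes, which build the subunits of the ribosome and are usually transcribed in step. Both also share stretches with pseudogene copies, a share that stays under the limit because it is taken of a long transcript. Of 81 such genes tested, 6 were called lower and 0 higher, against 0.0735% in each direction over all genes. These 6 were Rpl29, Rpl26, Rpl34, Rpl21, Rpl35a and Rps18, and their log2 fold changes ran from -4.05 to -1.35. Rpl29, Rpl26, Rpl21 and Rps18 are over the 20% limit of shared sequence. Copies of Rpl26 such as Gm15772 and Gm10136 were not among the counted genes. The 75 members that were not called had a median log2 fold change of 0.13, with 60 of them above 0. The list was added with these results known, so its count is a description. Rpl26 (chromosome 11, 68901583 to 68906989) was at 19.0, 18.3 and 21.9 CPM in truncated SK3 base, against 186, 176, 133 and 159 CPM in control base. All 3 truncated SK3 libraries were close together and far below the controls, with a log2 fold change of -3.05 (SE 0.21, edgeR adjusted p = 1.81e-08). Rpl35a (chromosome 16, 33056453 to 33060189) was at 19.7, 14.2 and 29.3 CPM in truncated SK3 base, against 83.3, 82.7, 70.2 and 76.5 CPM in control base, a log2 fold change of -1.89 (SE 0.32, edgeR adjusted p = 0.00879). Rpl21 changed by -2.62 (SE 0.47) and Rps18 by -1.35 (SE 0.25), with edgeR adjusted p-values of 0.0126 and 0.0135. Of the counted genes, BC004004 and Gm10045 hold 14.7% and 12.8% of the 50-base stretches of Rpl21. Summed with these before the fit, Rpl21 changed by -0.49 (SE 0.16) and was not called (edgeR adjusted p = 0.648). Rpl35a was not called without truncated SK3 base replicates 1 or 2, Rpl21 without any of the 3 truncated SK3 base libraries, and Rps18 without truncated SK3 base replicates 1 or 2 or control base replicates 2 or 4 (edgeR adjusted p up to 0.101, 0.135 and 0.189 in turn).

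For Rpl29 and Rpl34, few bases tell the gene from its copy, while Tagap1 is less close to Tagap. The windows below are 60 coding bases of 3 called genes, chosen to hold few differences. Each stands above the same stretch of a copy in the count table, from GENCODE M21 on GRCm38, with the base that differs in capitals. Over its whole coding sequence, Rpl29 differs from the processed pseudogene Gm8210 at 3 of 480 aligned bases and Rpl34 from the processed pseudogene Rpl34-ps1 at 2. Tagap1 differs from Tagap at 110 of 1515 (92.7% identity). The sequences were aligned without gaps, so an inserted or missing base would add to these counts.
Rpl29 (chr9:106430308-106430367, + strand): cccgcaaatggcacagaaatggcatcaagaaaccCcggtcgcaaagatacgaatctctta
Gm8210 (chr1:43189193-43189252, + strand): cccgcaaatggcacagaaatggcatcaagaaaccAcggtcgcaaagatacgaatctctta
Rpl34 (chr3:130729084-130729143, - strand): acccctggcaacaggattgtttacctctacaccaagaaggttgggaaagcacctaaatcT
Rpl34-ps1 (chr6:71124682-71124741, + strand): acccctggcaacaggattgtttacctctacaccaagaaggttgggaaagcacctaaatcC
Tagap1 (chr17:6956888-6956947, - strand): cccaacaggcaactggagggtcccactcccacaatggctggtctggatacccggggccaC
Tagap (chr17:7932960-7933019, + strand): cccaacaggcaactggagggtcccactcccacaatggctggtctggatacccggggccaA

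Rpl29 fell and its copy Gm8210 appeared. Rpl29, a protein of the large ribosomal subunit, was at 5.20, 7.67 and 8.61 CPM in truncated SK3 base, against 118, 132, 104 and 120.2 CPM in control base. The change was -4.05 on the log2 scale with an SE of 0.21 (edgeR adjusted p = 1.87e-10), the smallest adjusted p of all genes. Gm8210 had 176, 175 and 203 counts in truncated SK3 base, against 0, 0, 0 and 1 count in control base, and it was called higher (edgeR adjusted p = 1.69e-07). The pseudogene was outside the rule for named genes and was chosen after its values were seen. The sum of both was 24.4 ± 3.40 CPM (SD, n = 3) in truncated SK3 base and 119 ± 11.7 CPM (SD, n = 4) in control base. Summed to 1 gene before the fit, the pair still changed by -2.29 (SE 0.17, edgeR adjusted p = 8.14e-08). Sums here and below hold only copies that were counted. Close copies such as Gm13841 and Gm6344 of Rpl29, Gm4735 of Eno1b and Dynlt1-ps1 of Dynlt1b were not among the counted genes. Reads from such copies were therefore not covered by the sums.

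For Rpl34 and Eno1b the sum did not differ. Rpl34 was at 7.55, 10.5 and 14.8 CPM in truncated SK3 base, against 117, 77.7, 60.6 and 94.1 CPM in control base, a log2 fold change of -2.99 (SE 0.31, edgeR adjusted p = 9.58e-06). Rpl34-ps1 had the opposite order, at 101, 75.3 and 129.9 CPM in truncated SK3 base, against 10.2, 42.9, 33.0 and 10.2 CPM in control base. With the further copy Gm4705 the family came to 114 ± 29.7 CPM (SD, n = 3) in truncated SK3 base and 112 ± 15.1 CPM (SD, n = 4) in control base. Summed before the fit, the change was 0.02 on the log2 scale with an SE of 0.20 (edgeR adjusted p = 1). Eno1b, annotated as an enolase and close in sequence to the glycolytic gene Eno1, was at 232, 230.5 and 272 CPM in truncated SK3 base, against 40.1, 44.7, 45.8 and 46.0 CPM in control base, a log2 fold change of 2.47 (SE 0.29, edgeR adjusted p = 7.62e-05). Eno1 itself was at 763, 745 and 914 CPM in truncated SK3 base, against 994, 1085, 997 and 1183 CPM in control base. Both together changed by -0.08 (SE 0.17, edgeR adjusted p = 1).

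On chromosome 17, 3 called genes that share sequence lie close to each other. Dynlt1b (6430112 to 6436296), a light chain of the motor protein dynein, was at 48.7, 50.9 and 50.7 CPM in truncated SK3 base, against 4.88, 4.66, 3.6 and 2.32 CPM in control base. Its truncated SK3 libraries were nearly equal, and the change was 3.70 on the log2 scale with an SE of 0.33 (edgeR adjusted p = 1.42e-06). Tagap1 (6955011 to 6961156), annotated as a GTPase-activating protein gene, was at 36.0, 22 and 23.4 CPM in truncated SK3 base, against 61.3, 73.1, 79.9 and 82.3 CPM in control base, a log2 fold change of -1.45 (SE 0.24, edgeR adjusted p = 0.00664). Rnaset2a (8115445 to 8148097), a ribonuclease of the T2 family, was at 36.3, 26.9 and 32.8 CPM in truncated SK3 base, against 14.8, 13.8, 11.7 and 12.5 CPM in control base, a log2 fold change of 1.28 (SE 0.23, edgeR adjusted p = 0.0126). The groups did not overlap in any of the 3. Tmem242 (5410870 to 5440259), which shares no sequence, lay just outside the call at 111, 68.6 and 82.7 CPM in truncated SK3 base, against 40.8, 49.4, 39.6 and 54.7 CPM in control base (log2 fold change 0.92, SE 0.19, edgeR adjusted p = 0.0519). Tmem242 was chosen after its values were seen. Tagap1 was not called without truncated SK3 base replicates 2 or 3, nor Rnaset2a without truncated SK3 base replicates 1 or 3 or control base replicates 3 or 4 (edgeR adjusted p up to 0.0682 and 0.148).

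With their counted copies added, these 3 genes of chromosome 17 differed in what was left. The 4 Dynlt1 genes of the table summed to 94.3 ± 9.94 CPM (SD, n = 3) in truncated SK3 base and 39.1 ± 8.03 CPM (SD, n = 4) in control base, and the sum was called at 1.26 (SE 0.21, edgeR adjusted p = 0.0121). Tagap1 with Tagap came to 36.0 ± 14.5 CPM in truncated SK3 base and 75.6 ± 8.51 CPM in control base, a log2 fold change of -1.08 (SE 0.26, edgeR adjusted p = 0.236). Rnaset2a with Rnaset2b came to 44.6 ± 5.92 CPM in truncated SK3 base and 31.1 ± 2.48 CPM in control base, a log2 fold change of 0.51 (SE 0.25, edgeR adjusted p = 0.929).

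**Figure D2:**
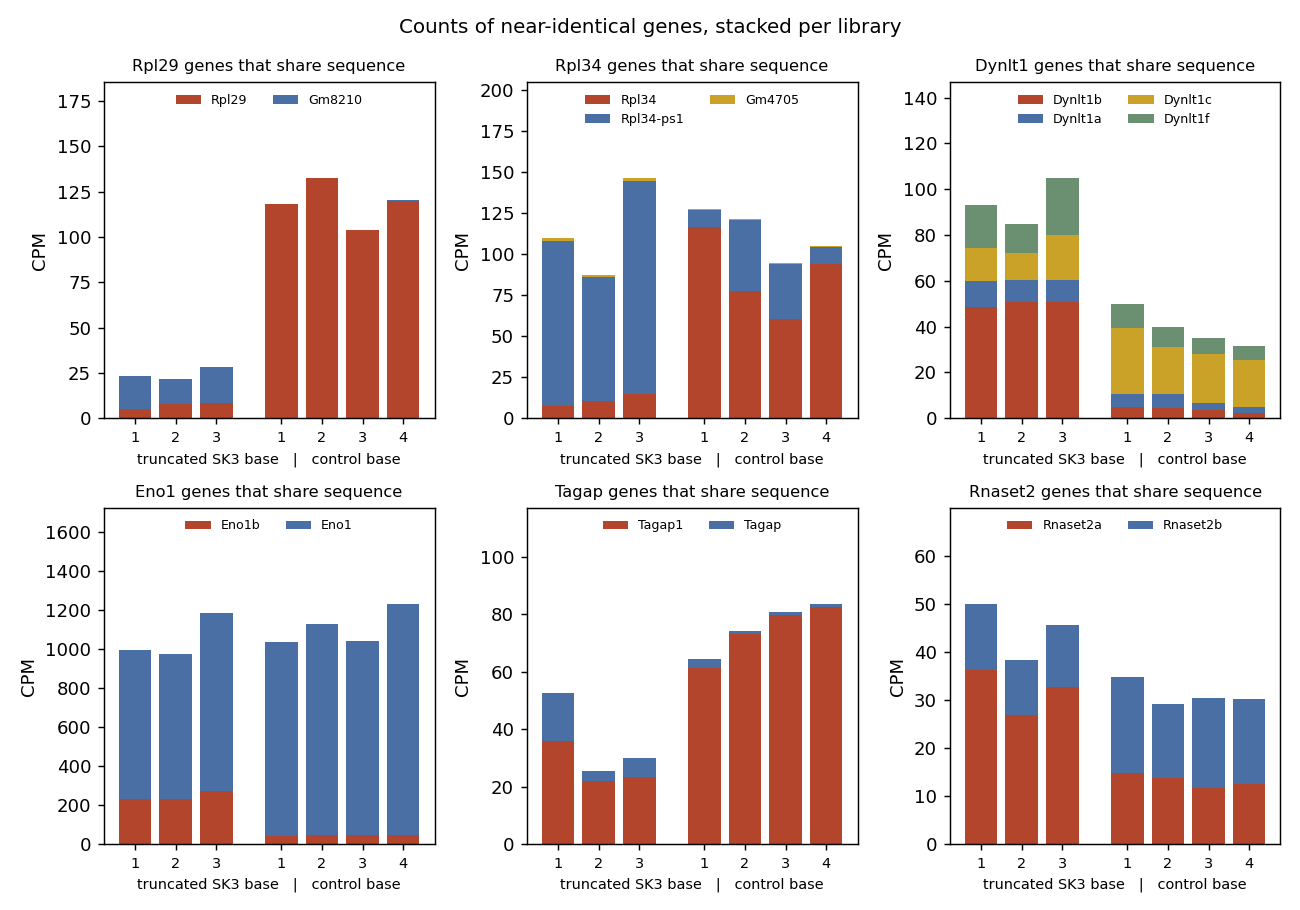
CPM per library of genes that share sequence, stacked so that the full bar is the sum of the copies that were counted. The 3 libraries of truncated SK3 base are on the left of each panel and the 4 of control base on the right. The Rpl29 and Tagap bars are lower in truncated SK3 base and the Dynlt1 bars higher, while the Rpl34 and Eno1 bars are of like height with other proportions.

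Another pair of genes that rose share sequence. Hist3h2ba (chromosome 11, 58948920 to 58949533), a histone H2B gene, was at 101, 74.8 and 99 CPM in truncated SK3 base, against 16.2, 10.7, 14.7 and 21.5 CPM in control base, a log2 fold change of 2.54 (SE 0.25, edgeR adjusted p = 4.87e-06). Nrbf2 (chromosome 10, 67266689 to 67285305), part of the lipid kinase complex that starts autophagy, was at 23.2, 23.0 and 23.3 CPM in truncated SK3 base, against 2.79, 5.87, 7.12 and 6.19 CPM in control base, a log2 fold change of 2.07 (SE 0.36, edgeR adjusted p = 0.011). In both the groups lay far apart, and the truncated SK3 libraries of Nrbf2 were almost equal. Nrbf2 was not called without truncated SK3 base replicates 1 or 3 (edgeR adjusted p up to 0.0664). Over all 22 called genes, 9 were called in each of the 7 fits that left out 1 library, namely Csrp1, Gprc5b, Hist3h2ba, Dynlt1b, Eno1b, Gm8210, Rpl29, Rpl26 and Rpl34. With only the 7 basal libraries fitted, 15 of the 22 remained called, and Csrp1, Nrbf2, Hddc3, Rnaset2a, Snapc1, Cox15 and Rps18 did not.

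The same construct in the apex, measured in other libraries against other controls, gave a second reading of the 22 genes. All 22 had the same sign there, as did 58.6% of all genes tested, and 21 of them had libraries that did not overlap, as did 11.8% of all genes tested in the apex. In the apex edgeR called 38 genes (0.254%), 15 higher (0.1%) and 23 lower (0.154%), and 16 genes were called in both regions, all in the same direction. These 16 are 72.7% of the basal calls and 42.1% of the apical ones. Nptx2 was at 0.352, 0.215 and 0.253 CPM in truncated SK3 apex, against 13.9, 18.6, 9.28 and 6.39 CPM in control apex, a log2 fold change of -5.42 (SE 0.87, edgeR adjusted p = 0.00365). Csrp1 was at 61.5, 79.5 and 80.2 CPM in truncated SK3 apex, against 10.1, 3.24, 8 and 7.92 CPM in control apex, a log2 fold change of 3.33 (SE 0.52, edgeR adjusted p = 0.00303). Psmc3ip changed by 3.35 (SE 0.55) and Gprc5b by 2.37 (SE 0.21), with edgeR adjusted p-values of 0.00456 and 7.96e-07. The basal calls that were not called in the apex were Nrbf2, Hddc3, Nrsn2, Snapc1, Tagap1 and Rpl21.

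Whether the effect of truncated SK3 differed between the regions was tested as an interaction. No gene was called by edgeR (0% of those tested), with 545 (3.64%) at an unadjusted p under 0.05, while limma-voom called 0 and DESeq2 21. Of the 22 basal calls, 4 had an unadjusted interaction p under 0.05 in edgeR. Nrsn2 was at 134, 95.5 and 132 CPM in truncated SK3 apex, against 112, 104, 91.6 and 85.1 CPM in control apex, so that its groups overlapped there and were apart in the base. For Nrsn2 this difference was 0.88 on the log2 scale (SE 0.28, edgeR adjusted p = 1). The effect in the base minus that in the apex was -1.20 for Snapc1 (SE 0.47) and -0.78 for Gprc5b (SE 0.29), both with an edgeR adjusted p of 1. Gm8210 was the other gene of the 4.

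With predicted genes and pseudogenes left aside, the 5 smallest interaction p-values belonged to H2-Aa, Dusp27, Slc1a3, Cmpk2 and Sh2d6, none of which was called in the base. Slc1a3, a glutamate transporter of glia, was at 118, 151 and 125 CPM in truncated SK3 base, against 141, 140, 175 and 183 CPM in control base, where the groups overlapped. In the apex it was at 209, 279 and 144 CPM with truncated SK3, against 112, 95.4, 118 and 80.1 CPM in control apex, and was called higher (log2 fold change 1.06, SE 0.22, edgeR adjusted p = 0.0362). The effect in the base minus that in the apex was -1.34 (SE 0.31, edgeR adjusted p = 1). Dusp27, of the dual-specificity phosphatase family, differed by 1.80 (SE 0.41, edgeR adjusted p = 1). Sh2d6, an SH2-domain gene, was at 0, 0.242 and 0.0967 CPM in truncated SK3 base, against 2.35, 1.84, 1.42 and 2.6 CPM in control base. In the apex its libraries were uneven and overlapped, at 1.06, 38.3 and 39.8 CPM with truncated SK3, against 5.65, 20.9, 7.86 and 5.77 CPM in control apex. Sh2d6 differed by -5.39 (SE 1.38, edgeR adjusted p = 1).

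**Figure D3:**
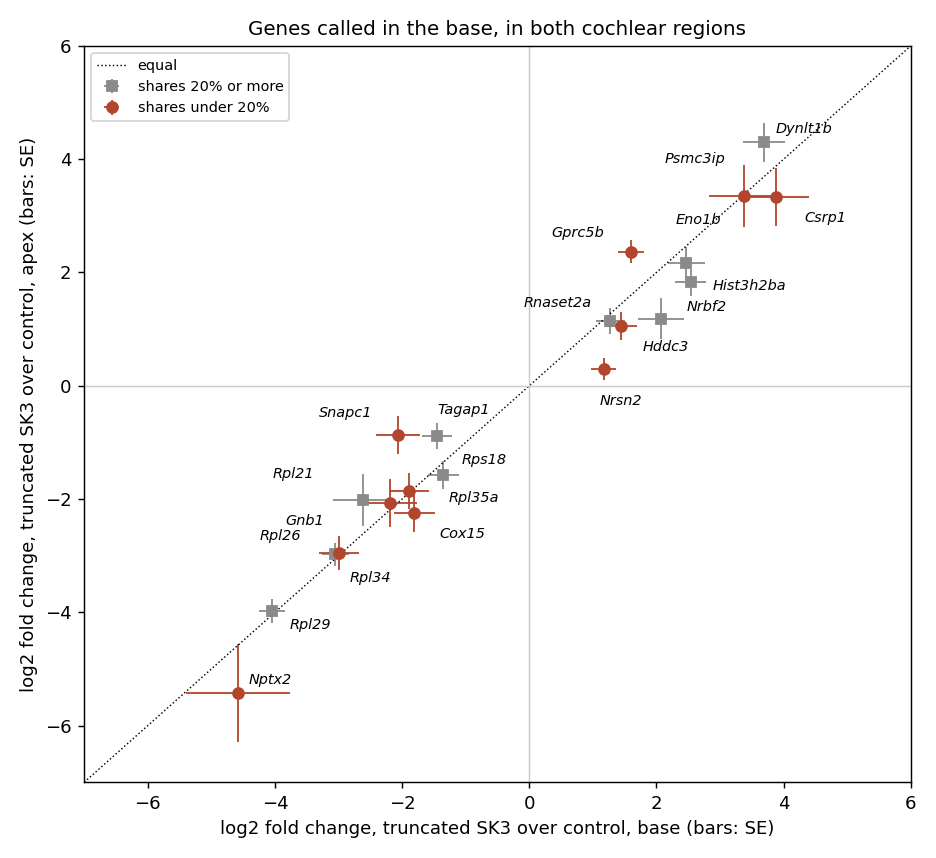
Log2 fold changes of truncated SK3 over control in the base (x axis) and in the apex (y axis) for 21 of the 22 genes called in the base, with bars of 1 SE; Gm8210, with 1 count in all control base libraries, has no fold change and is left out. Grey squares are genes that share sequence at the 20% limit and red circles those under it, and all points lie in the lower left or upper right part, with Nrsn2 nearest to 0 in the apex.

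Libraries of the other construct in the base were compared directly with truncated SK3 base, since both constructs share their controls. Between truncated SK3 base and DN-HCN2 base edgeR called 36 genes (0.241%), 26 higher (0.174%) and 10 lower (0.0668%) in truncated SK3 base, and 1 of the 22 basal calls was among them. That gene was Gprc5b, at 106, 117 and 83.1 CPM in truncated SK3 base, against 17.9, 12.5 and 14.4 CPM in DN-HCN2 base. The log2 fold change between the constructs was 2.77 (SE 0.23, edgeR adjusted p = 1.72e-06), and the controls, at 26.8 to 38.2 CPM, lay between them.

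Several other genes differed between the constructs in level but not in the test. Csrp1 was at 80.9 to 300.2 CPM in truncated SK3 base and 18.2, 56.8 and 21.9 CPM in DN-HCN2 base (log2 fold change 2.42, SE 0.55, edgeR adjusted p = 0.0688). Psmc3ip was at 13.1 to 24.0 CPM in truncated SK3 base and 5.16, 1.48 and 3.21 CPM in DN-HCN2 base (2.36, SE 0.59, edgeR adjusted p = 0.0837). Nptx2 was at 0.204 to 1.05 CPM in truncated SK3 base and 1.67, 1.48 and 10.0 CPM in DN-HCN2 base (-3.04, SE 0.79, edgeR adjusted p = 0.0876). In these 3 genes, taken from the basal calls, the libraries of the 2 constructs did not overlap. How many of all genes tested did so was not counted for this comparison, so the separation is only a description. Gnb1 was at 246 to 595 CPM in truncated SK3 base and 1555, 1119 and 534 CPM in DN-HCN2 base (-1.39, SE 0.43, edgeR adjusted p = 0.15), where replicate 3 of DN-HCN2 base fell within the truncated SK3 range.

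None of the 11 called genes that share sequence was called between the constructs, and their differences ranged from near 0 to over 1 on the log2 scale. Rpl29 was at 5.20 to 8.61 CPM in truncated SK3 base and 6.77 to 7.77 CPM in DN-HCN2 base, a log2 fold change of -0.01 (SE 0.20, edgeR adjusted p = 0.995). Gm8210 was at 14.1 to 19.6 CPM in truncated SK3 base and 14.7 to 18.8 CPM in DN-HCN2 base. Rpl26 differed between the constructs by 0.06 (SE 0.20), Rnaset2a by -0.08 (SE 0.24) and Tagap1 by -0.14 (SE 0.24), with edgeR adjusted p-values of 0.923, 0.915 and 0.844. Rps18 and Nrbf2 were as close, at -0.10 (SE 0.25) and -0.10 (SE 0.38). Differences were larger for Rpl21, which averaged 13.0 CPM in truncated SK3 base and 26.9 CPM in DN-HCN2 base (log2 fold change -1.05, SE 0.47, edgeR adjusted p = 0.302). Hist3h2ba differed by 0.69 (SE 0.26), Dynlt1b by -0.50 (SE 0.33) and Eno1b by 0.39 (SE 0.30), with edgeR adjusted p-values of 0.228, 0.51 and 0.586. Cox15, which shares no sequence, was at 9.69 to 20.6 CPM in truncated SK3 base and 9.51, 16.5 and 11.3 CPM in DN-HCN2 base. Under the 20% limit, Rpl34 and Rpl35a averaged 12.7 and 17.6 CPM in DN-HCN2 base. Their means were 10.9 and 21.1 CPM in truncated SK3 base and 87.3 and 78.2 CPM in control base. Hddc3, Nrsn2 and Snapc1, also under that limit, lay on the same side of control base with both constructs, unlike Gprc5b. In DN-HCN2 base Hddc3 was at 82.0, 109 and 87.1 CPM, Nrsn2 at 88.4, 111 and 119 CPM and Snapc1 at 12.9, 10.1 and 10.2 CPM. Between the constructs their edgeR adjusted p-values were 0.449, 0.511 and 0.306. DN-HCN2 base was not tested against control base here.

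Besides Gprc5b, the smallest p-values between the constructs belonged to genes that truncated SK3 left near the control level. Map3k1, a kinase at the head of a MAP kinase cascade, was at 119, 97.4 and 87.2 CPM in truncated SK3 base, against 26.2, 25.5 and 28.7 CPM in DN-HCN2 base (log2 fold change 1.91, SE 0.22, edgeR adjusted p = 0.000241). In control base it was at 98.9 to 133 CPM. Adamts5, a protease of the extracellular matrix, was at 170.0, 117 and 194 CPM in truncated SK3 base, against 62.6, 67.7 and 73.6 CPM in DN-HCN2 base (1.24, SE 0.18, edgeR adjusted p = 0.00587). Fbxo40, an F-box protein, differed by 1.5 (SE 0.23) and Lancl3, of the lanthionine synthetase-like family, by 1.79 (SE 0.29), with edgeR adjusted p-values of 0.00695 and 0.00939. Against control base none of these 4 was called, with log2 fold changes of -0.18 (SE 0.20), 0.02 (SE 0.17), 0.17 (SE 0.21) and 0.08 (SE 0.26), in that order.

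Gene lists of pathways that channels and activity bear on held few calls. Of 36 such lists, 33 had no called member, and the calls in the other 3 were Nptx2 and Csrp1. In the pentraxin and synapse organizer list, 1 of 14 members tested was called lower and 0 higher. Nptx2 was also the only call among 24 late activity-regulated genes, of which 8 had a positive log2 fold change (median -0.20). Syt4, a calcium-independent synaptotagmin on that list, was at 236, 210.4 and 318 CPM in truncated SK3 base, against 167, 132, 112 and 167 CPM in control base (log2 fold change 0.82, SE 0.19, edgeR adjusted p = 0.16).

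Immediate early genes, the first to be transcribed after activity, were mostly on the positive side without a call. Of 29 tested, 0 were called and 25 had a positive log2 fold change, against 51.1% of all genes tested, and the median was 0.41. Egr3 averaged 9.07 ± 9.78 CPM (SD, n = 3) in truncated SK3 base and 2.48 ± 2.43 CPM (SD, n = 4) in control base, with a log2 fold change of 1.86 (SE 1.04, edgeR adjusted p = 0.961). Ier2 averaged 239 ± 74.1 CPM in truncated SK3 base and 157 ± 51.9 CPM in control base (0.60, SE 0.41, edgeR adjusted p = 1), and Btg2 252 ± 83.1 CPM in truncated SK3 base and 137 ± 67.8 CPM in control base (0.87, SE 0.60, edgeR adjusted p = 1). Npas4 went the other way, at a mean of 0.753 CPM in truncated SK3 base and 3.31 CPM in control base. In none of the 29 were the groups apart, so each difference lay within the spread of the libraries.

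The lists of synaptic adhesion, active zone, postsynaptic and vesicle genes, which do not hold Nptx2, had no called member. Of 44 synaptic adhesion genes tested, 11 had a positive log2 fold change (25%, against 51.1% of all genes tested), and the median was -0.23. Of the same 44, 6 were lower at an unadjusted p under 0.05 and 0 higher, against 2.93% lower and 2.58% higher over all genes. Igsf21, an adhesion protein of inhibitory synapses, was at 34.0, 32.4 and 49.1 CPM in truncated SK3 base, against 106, 95.6, 54.0 and 74.4 CPM in control base (log2 fold change -1.10, SE 0.24, edgeR adjusted p = 0.0883). Of 22 active zone genes, which build the sites of transmitter release, 17 were negative (median -0.22). Of 35 glutamate receptor and postsynaptic density genes, 21 were negative (median -0.08), led by the scaffold Shank1 at 16.8, 17.6 and 8.03 CPM in truncated SK3 base, against 32, 40.7, 31.0 and 39.6 CPM in control base (-1.34, SE 0.30, edgeR adjusted p = 0.124). The libraries of Igsf21 and of Shank1 did not overlap. In the apex both were called, Igsf21 at -1.25 (SE 0.24, edgeR adjusted p = 0.0234) and Shank1 at -1.64 (SE 0.31, edgeR adjusted p = 0.019). Of 39 genes of synaptic vesicles and release, 21 were positive and 18 negative (median 0.02), with Syt2, the calcium sensor of fast release, at 200.4, 239 and 159 CPM in truncated SK3 base, against 279, 293, 282 and 332 CPM in control base (-0.57, SE 0.22, edgeR adjusted p = 0.759). These named genes were chosen after their values were seen.

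Ion channel lists had 0 calls as well. Among 15 voltage-gated sodium channel genes, Scn4b lay just outside the threshold. Scn4b (chromosome 9, 45138395 to 45154152), an auxiliary beta subunit that speeds repeated firing, was at 244, 353 and 175 CPM in truncated SK3 base, against 70.6, 64.4, 91.7 and 72.8 CPM in control base. The groups were well apart, with a log2 fold change of 1.78 (SE 0.36, edgeR adjusted p = 0.0519). Voltage-gated calcium channel genes had 15 of 19 members negative (median -0.58), KCNQ, EAG and silent potassium channel genes 11 of 13 (median -0.61), and inward rectifier and leak potassium channel genes 12 of 16 (median -0.53). These counts include members near the floor. Kcns2 and Kcnh1, for example, were at 0 CPM in truncated SK3 base and averaged 0.46 and 0.11 CPM in control base. Of 22 Kv1 to Kv4 genes 14 were negative, of 7 SK and BK genes 4 and of 5 HCN genes 3.

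Some lists of basic cell functions had small median changes that leaned to one side, with no call. Of 31 proteasome genes 28 were positive and of 46 nuclear genes of the respiratory chain 37, both with a median of 0.10, while 27 of 30 neuronal splicing and RNA-binding genes were negative (median -0.20). In the apex these 3 medians were -0.07, -0.05 and -0.05. Cell division genes had a median of 1.07, with 20 of 26 positive and 0 called, and a median of -0.10 in the apex. Their summed level was nevertheless lower with truncated SK3, at a mean of 366 CPM in truncated SK3 base and 454 CPM in control base. Genes of the interferon response had a median of 0.47, with 25 of 31 positive and 0 called. Isg15, a ubiquitin-like protein induced by interferon, averaged 8.37 ± 2.05 CPM (SD, n = 3) in truncated SK3 base and 3.06 ± 1.04 CPM (SD, n = 4) in control base (log2 fold change 1.45, SE 0.70, edgeR adjusted p = 0.907). Genes of the unfolded protein response split evenly, with 16 positive and 15 negative, and Hyou1, a chaperone of the endoplasmic reticulum, was at 78.2, 56.6 and 36.5 CPM in truncated SK3 base, against 22.4, 19.9, 39.4 and 26.2 CPM in control base (1.08, SE 0.27, edgeR adjusted p = 0.243). Its groups overlapped through truncated SK3 base replicate 3 and control base replicate 3.

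**Figure D4:**
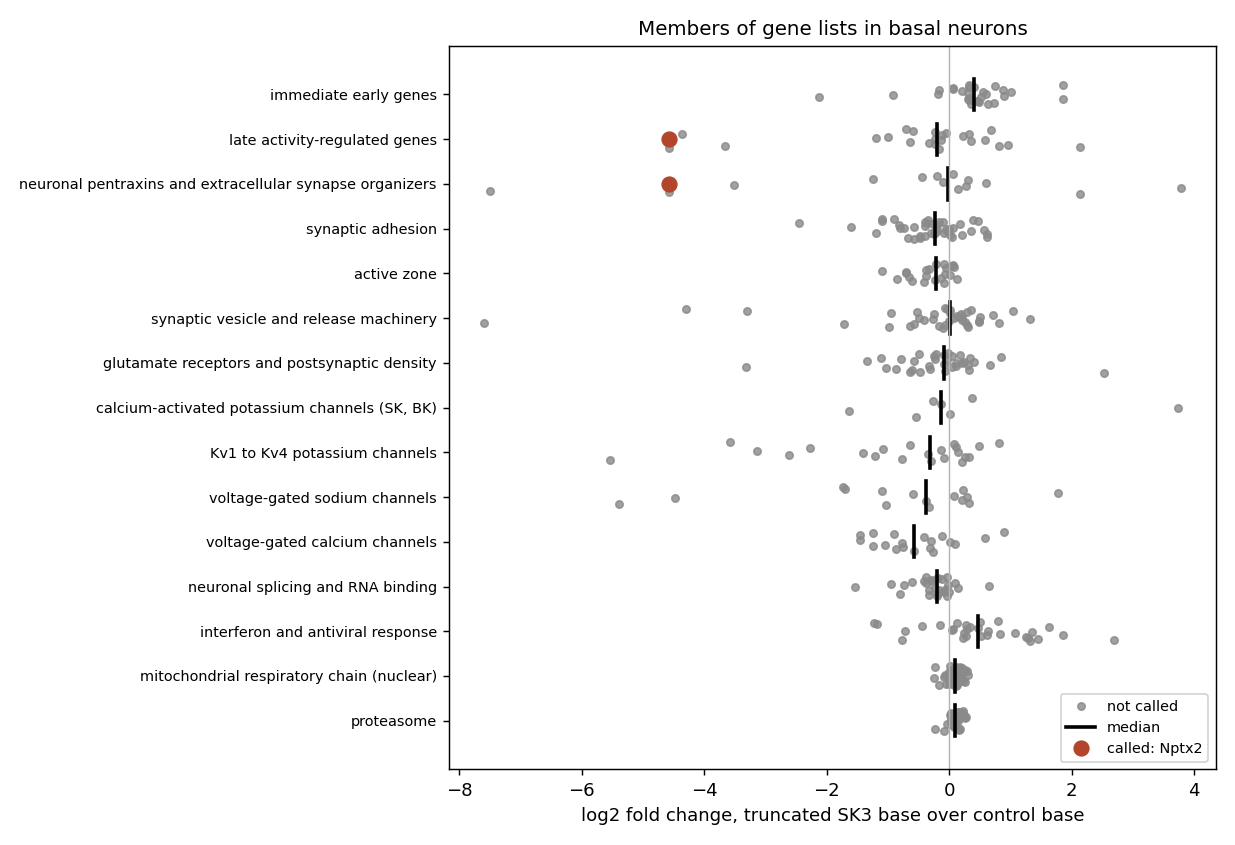
Log2 fold change of truncated SK3 base over control base (x axis) for each tested member of 15 gene lists (grey points), with the median of the list as a black bar and the called gene Nptx2 in red on both lists that hold it. Immediate early and interferon genes have medians of 0.41 and 0.47 and calcium channel genes of -0.58, while the points of each list spread to both sides of 0.

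Markers of other cell types were present in these libraries and differed between them. Summed over 18 genes, markers of spiral ganglion neurons came to 25689.5, 30175 and 28291 CPM in truncated SK3 base, against 27308, 23644, 22898 and 22331 CPM in control base. Markers of Schwann cells and satellite glia were as abundant, at 43124, 18658 and 24133 CPM in truncated SK3 base, against 24501, 14295, 27184 and 21830.1 CPM in control base. Oligodendrocyte markers were highest in truncated SK3 base replicate 1, with 7484, 1122 and 994 CPM in truncated SK3 base, against 3674, 822, 3133 and 2339 CPM in control base. In the libraries with low sums, most of the sum was Cnp. Cnp was at 1054 and 910.7 CPM in truncated SK3 base replicates 2 and 3 and 794.4 CPM in control base replicate 2. Mobp was at 2066, 17.8 and 45.5 CPM in truncated SK3 base, against 785.7, 9.12, 670.7 and 359.2 CPM in control base. Mog was at 829.6, 0.888 and 0.58 CPM in truncated SK3 base, against 409.7, 0.283, 198.6 and 151 CPM in control base. Without the library of each basal group that was richest in oligodendrocyte markers, 13 genes were called, 12 of them among the 22. The calls lost there were Psmc3ip, Nrbf2, Rnaset2a, Nptx2, Gnb1, Snapc1, Cox15, Rpl21, Rpl35a and Rps18, in a fit with 2 libraries fewer. Their log2 fold changes stayed near those of the full fit, with Nptx2 at -4.24 (edgeR adjusted p = 0.296) and Psmc3ip at 3.33 (edgeR adjusted p = 0.0815).

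Blood and immune markers were low next to those of neurons and uneven. Erythrocyte markers summed to 3752, 559.8 and 2896 CPM in truncated SK3 base, against 650.0, 79.8, 1093 and 7.18 CPM in control base. Macrophage markers were at 117, 313 and 27.1 CPM in truncated SK3 base, against 20.9 to 59.7 CPM in control base, with 14 of 15 members positive. Endothelial markers reached 329 CPM in truncated SK3 base replicate 3 and were at most 68.4 CPM in the other basal libraries. Supporting cell and hair cell sums rest mostly on 1 gene each. Sparcl1 gave 4681 to 5137 CPM of the supporting cell sum of 4872 to 5698 CPM in truncated SK3 base, and 4102 to 4531 CPM of 4246 to 4981 CPM in control base. Cib2 gave 65.5 to 92.6 CPM of the hair cell sum of 71.9 to 98.3 CPM in truncated SK3 base, and 30.3 to 85.9 CPM of 46.3 to 94.8 CPM in control base. Fibroblast markers spanned 829 to 1721 CPM in truncated SK3 base and 510.3 to 3831 CPM in control base. The part of these cells in the results was not tested. No marker gene of any of the 11 lists was called.

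Markers of type II neurons, the sparse unmyelinated neurons that contact outer hair cells, were the only list whose sums did not overlap in the base. Their 5 genes summed to 0.816, 1.05 and 1.35 CPM in truncated SK3 base, against 32, 156, 18.2 and 10.1 CPM in control base. Prph, the peripherin gene that defines them, was at 0, 0 and 0.774 CPM in truncated SK3 base, against 10.0, 23.7, 6.72 and 6.19 CPM in control base, and was not called (edgeR adjusted p = 0.731). Th alone gave 83.6 CPM of the 156 CPM in control base replicate 2. An exact permutation test of the basal sums, two-sided, gave p = 0.0571, the smallest value that 35 divisions of 7 libraries allow, or 0.314 adjusted over the 11 lists. In the apex the sums overlapped, at 70.8, 1.22 and 6.99 CPM in truncated SK3 apex, against 55.3, 129.5, 47.6 and 9.52 CPM in control apex. In libraries of pooled neurons, fewer cells of a type and less RNA per cell cannot be told apart.

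**Figure D5:**
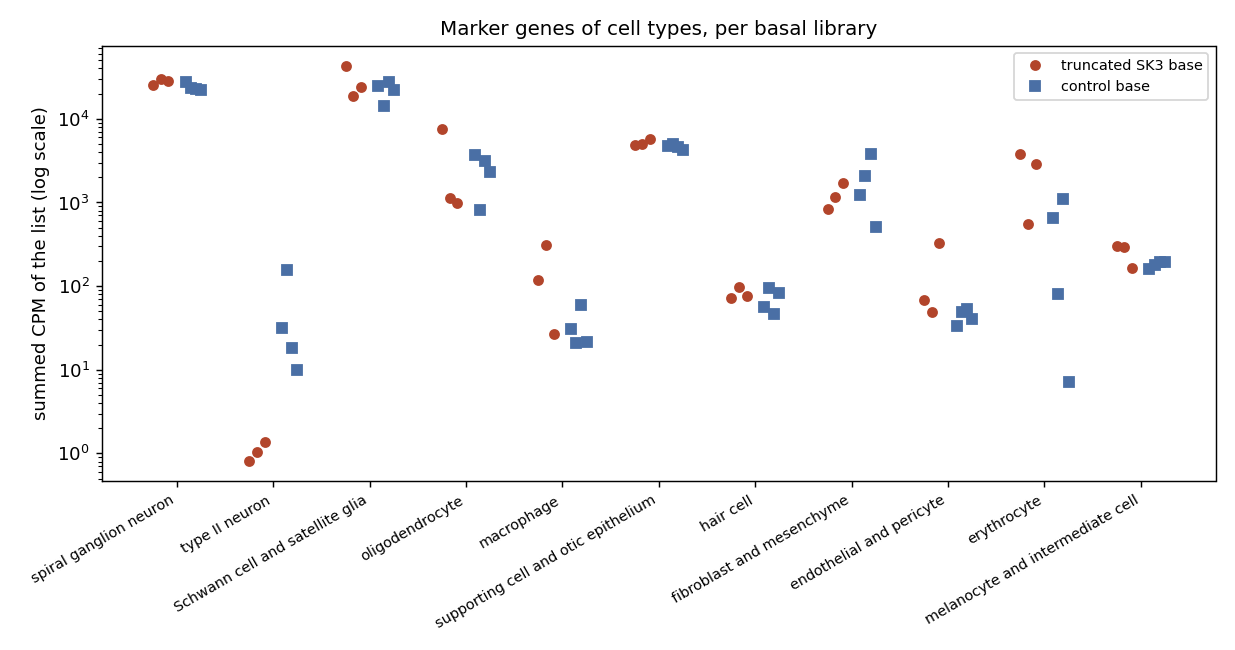
Summed CPM of each marker list (log axis) per basal library, with truncated SK3 base (red circles, n = 3) left of control base (blue squares, n = 4). The type II neuron sums of 0.816 to 1.35 CPM in truncated SK3 base lie below the 10.1 to 156 CPM of control base, and the sums of the other lists overlap, as the neuron markers at 25689.5 to 30175 and 22331 to 27308 CPM do.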

How the data were processed

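The authors deposited 1 table of whole-number read counts for 21878 gene symbols in 21 libraries, and 27 lines carry names turned into dates. The submitters' processing notes name Trimmomatic, HISAT2, DESeq2, GRCm38 and mm10 without their roles, and the counting tool and annotation are not given in the sources used here. Of these lines 3555 had no count, and 14968 passed edgeR's filterByExpr.

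Counts as deposited were scaled by TMM and tested with edgeR 4.0.16 (robust quasi-likelihood, 1 mean for each of 6 groups over all libraries, Benjamini-Hochberg adjustment over all genes tested, threshold 0.05) in R 4.3.3. SE is the log2 fold change over the square root of F. Alternatives used DESeq2 1.42.0 and limma 3.58.1. The edgeR, DESeq2 and limma-voom fits of the base comparison were tried on 1 set of simulated counts. The other comparisons and alternatives were not simulated. Coordinates and shared sequence came from GENCODE M21, which holds 14455 of the symbols tested.

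The groups come from the titles. The members and lists were chosen with earlier results of these data known. Named genes were the SK genes and Hcn2, up to 12 called rises and 12 falls with a mean of at least 10 CPM, up to 3 called members of each list, and the 5 smallest p of the interaction and the construct test, without predicted genes and pseudogenes. Other genes named in the lists, among copies and just outside the threshold were chosen after their values were seen. Total counts are given in the report, and the alternatives tried are in the closing section.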

Additional observations from a re-analysis of the deposited data

Results flagged for a closer look

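In control base, 1 library stood apart from the other 3 for a few values, measured as the gap to the nearest library over the range of the group. Kcnn4 was at 0.543 CPM in replicate 3 and at 0 in the others (ratio 1), H2-Aa, a class II antigen-presentation gene, at 0.212 CPM in replicate 2 (ratio 1) and Gm8210 at 0.0704 CPM in replicate 4 (ratio 1), where a ratio of 1 follows from the other 3 libraries being at 0. Dynlt1c was at 29.2 CPM in replicate 1 (ratio 0.892). The type II neuron markers summed to 156 CPM in replicate 2 (ratio 0.85). For values not at 0, chance gives such a case in about 1 in 20 groups.

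For 2 of the named genes, both named for their small interaction p, every truncated SK3 library moved one way against control in the base and the other way in the apex. Over all 14968 genes tested this held for 23 (0.154%). H2-Aa was at 1.53, 29.8 and 1.35 CPM in truncated SK3 base, against 0, 0.212, 0 and 0 CPM in control base. In the apex it was at 0.088, 0 and 0 CPM with truncated SK3, against 1.47, 0.386, 0.813 and 3.54 CPM in control apex. The effect in the base minus that in the apex was 12.8 on the log2 scale, which with counts at 0 is no measured size, and it was not called (edgeR adjusted p = 0.704). Cmpk2, a mitochondrial nucleotide kinase induced by interferon, was at 43.2, 49.0 and 45.6 CPM in truncated SK3 base, against 37.9, 22.5, 27.6 and 34.5 CPM in control base. In the apex it was at 28.1, 24.8 and 27.3 CPM with truncated SK3, against 39.9, 41.4, 41.2 and 41.1 CPM in control apex, a difference of 1.198 (edgeR adjusted p = 1).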

How the results depend on the processing

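The 22 basal calls became 81 with DESeq2 (33 higher, 48 lower) and 45 with limma-voom (26 higher, 19 lower), both including the 22. They numbered 18 with the replicate block (10 higher, 8 lower); same-numbered libraries deviated together with r of 0.156, 0.0418 and -0.112, so the numbers were not taken to pair samples. Nptx2 (edgeR adjusted p = 0.069), Gnb1, Rnaset2a and Rps18 were not called with that block. Leaving out 1 library gave 11 to 22 calls in the base, with 11 without truncated SK3 base replicate 1 and 12 without replicate 3. Chosen after seeing the data, leaving out genes that share sequence gave 10 calls, and leaving out the library of each basal group richest in oligodendrocyte markers gave 13 (9 higher, 4 lower). Summing counted copies before the fit, also chosen so, left Rpl34, Rpl21, Eno1b, Tagap1, Rnaset2a and Gnb1 without a call. The 38 apical calls became 156 with DESeq2, 119 with limma-voom and 19 to 62 with 1 library left out. The interaction had 21 calls with DESeq2 and 0 in the other fits. The 36 calls between constructs became 530 with DESeq2, 21 with limma-voom, 7 with only the groups compared, 11 with the replicate block and 7 to 109 with 1 library left out, the last without truncated SK3 base replicate 3. The cause was not tested. Other scalings and filters gave 21 to 25 basal calls.

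The log2 fold change of Kcnn3, -1.63 on few counts, turned to 0.1262 with the replicate block. Others that changed sign were near 0. Kcnn2 was at -0.0008514 with a stricter filter, -0.001359 with limma-voom, -0.005196 with the replicate block, -0.003971 without sharing genes and -0.05177 to 0.05406 with 1 library left out. Adamts5 was at -0.03746 with limma-voom, -0.01232 with the block and -0.1356 to 0.2034 with 1 library left out. Lancl3 was at -0.01741 with limma-voom and -0.1153 to 0.2209 with 1 library left out. Of 911 values of named genes under alternatives, 808 kept direction and side of the threshold, 63 lost the call and 24 gained one. With 0 to 22 counts a library, Kcnn3 has a standard error of 1.75 on the log2 scale.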
